A study of Mus musculus with 8 samples.

Results

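The genes that carry the first steps of T cell receptor (TCR) signaling were followed across the T cells of mouse bone marrow. They were 34 genes, fixed by symbol, out of the 32285 genes counted in each library, and each symbol was found exactly once. Of these, 23 are positive regulators, namely 4 receptor chains, 6 kinases, 7 adaptors and scaffolds, 3 effectors and 3 surface or associated proteins, and 11 are negative regulators. All 34 had enough counts to be tested in each of the 18 comparisons below.

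The cells were living bone marrow T cells that carried CD3 on their surface and no mCherry, sorted from C57BL/6 mice after other cell types had been depleted. In the Runx1::Runx1t1 group, the Runx1Runx1t1/+; Mx1-Cre mice carried a knock-in allele of the leukemia fusion gene that Cre recombination switches on, and the Mx1 promoter drives Cre in the hematopoietic system and beyond when interferon is induced by Poly(I:C). The control group, labelled WT, was made up of sex-matched littermates that carried the same Runx1Runx1t1/+ allele without Mx1-Cre and, by the study's methods, had the same Poly(I:C) injections some weeks before. Their ages were not given in the sources used here. mCherry marks cells in which the fusion allele was switched on, so the sort kept T cells without the marker in both groups. Each group had 2 pools, each pool was the marrow of a pair of mice, and each pool gave a 5′ gene expression library and a TCR library, which makes 8 libraries in all.

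When a TCR meets its antigen, Lck and Fyn phosphorylate the tails of the CD3 and zeta chains (Cd3d, Cd3e, Cd3g and Cd247), Zap70 docks there and phosphorylates the scaffolds Lat and Lcp2, and these assemble Plcg1, Vav1 and the kinases of the Tec family. Plcg1 then splits a membrane lipid into calcium-releasing and diacylglycerol signals, and the latter feed Rasgrp1 and Prkcq. Csk and its membrane anchor Pag1, the phosphatases Ptpn22 and Ptpn6, Ubash3a, the ubiquitin ligases Cbl and Cblb, the diacylglycerol kinases Dgka and Dgkz, and the receptors Cd5 and Cd6 restrain these steps. Transcript levels of these genes are known to differ between naive and antigen-experienced T cells, and an RNA level does not measure phosphorylation or signaling.

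In the 4 gene expression libraries, 90958101 to 102883449 UMIs (unique molecular identifiers, each standing for a captured RNA molecule) were counted over 13633 to 14664 barcodes. After filtering, 9153 and 8177 T cells with exactly 1 productive TRB chain and 1 or 2 productive TRA chains remained in the Runx1::Runx1t1 pools, and 7739 and 8538 in the control pools. Each pair of libraries shared 256 to 306 barcode sequences. Runx1t1, the fusion partner gene, had 40 and 47 UMIs in all T cells of the Runx1::Runx1t1 pools and 9 and 18 in those of the control pools, and Runx1 had 95.8 and 84.5 against 80.8 and 82.5 CPM (counts scaled to the same total in every pool). Runx1t1 was low in all pools, and more of its UMIs came from the Runx1::Runx1t1 pools.

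T cells were sorted into 8 classes by UMIs of marker genes, none of which is a member. Cd8 cells had at least 2 UMIs of Cd8a and Cd8b1 and none of Cd4, and were called Pdcd1 Cd8 with at least 1 UMI of Pdcd1, the PD-1 receptor. The others were called effector Cd8 with a UMI of Klrg1, Cx3cr1, S1pr5 or Zeb2, memory Cd8 with a UMI of Cxcr3, Il2rb or Eomes, and naive Cd8 with none of these, at most 1 UMI of Ccl5 and a UMI of Ccr7 or Lef1. Cd4 cells were divided by Foxp3, the regulatory T cell factor, into Foxp3 Cd4, experienced Cd4 (a UMI of Pdcd1, Cxcr3, Il2rb, Cxcr6 or Maf, or at least 2 of Ccl5) and naive Cd4. Cells with no UMI of Cd4, Cd8a or Cd8b1 and at least 1 of Klrb1c, the NK1.1 receptor, formed the co-receptor-negative Klrb1c class, and those without Klrb1c were described but not tested, since a Cd4 cell whose Cd4 RNA was missed falls there. A gate at 1 UMI also depends on depth and on free RNA. A single Pdcd1 UMI placed 46.0%, 33.1%, 63.9% and 79.5% of the Pdcd1 Cd8 cells in their class, in the order Runx1::Runx1t1 replicates 1 and 2 and control replicates 1 and 2, which is the order of all values below.

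Lists of markers were summed per class to check the names. The T cell gates did not use most of them, but the lists hold the gate genes Ccl5, Il2rb, Eomes and Klrb1c. The summed level of 6 naive markers was 2099 to 2505 in naive Cd8, 1332 to 1654 in memory Cd8 and 112 to 645 in Pdcd1 Cd8 cells. Of the memory Cd8 cells, 8.27% to 20.4% entered on 1 UMI with at most 1 of Ccl5, so this class may hold naive cells. The 6 exhaustion-related markers other than Pdcd1 summed to 793 to 2355 in Pdcd1 Cd8 cells and 229 to 646 in effector Cd8 cells. The regulatory markers summed to 2042 to 3823 in Foxp3 Cd4 cells and to at most 901 in experienced Cd4 cells. The memory and effector lists did not set their classes apart. The memory list, which includes the gate gene Ccl5, summed to 8113 to 12180 in memory Cd8 cells but to 17560 to 24420 in effector and 15730 to 43020 in Pdcd1 Cd8 cells. The effector list stood at 2039, 2173, 1048 and 786 in effector Cd8 cells and at 1940, 2804, 362 and 661 in Pdcd1 Cd8 cells, so the names memory, effector and Pdcd1 Cd8 rest on the gates. Pdcd1 Cd8 cells numbered 470 and 1654 in the Runx1::Runx1t1 pools but 61 and 78 in the control pools, and the largest clonotype held 19.1%, 54.6%, 9.84% and 7.69% of them, so a value of this class in Runx1::Runx1t1 replicate 2 leans on 1 clone. Levels are given as UMIs summed per class and pool, in CPM scaled by TMM factors, which allow for RNA taken up by a few abundant genes, and they are compared between classes and never between genes. Differences are log2 fold changes from edgeR's quasi-likelihood test on these sums, within pools for classes, with p adjusted over all genes tested by Benjamini-Hochberg and called under 0.05. Between classes the pool was a block, and the sums of all 8 classes in 4 pools shared 1 estimate of the spread for each gene. Those p-values therefore rest on the spread that is left within pools, not on that between pools. Between groups they rest on the spread between 2 pools per group. Neither covers the spread between single mice. Most genes whose pools are compared below were picked by their call, so agreement among the pools adds no support beyond the test.

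**Figure D1:**
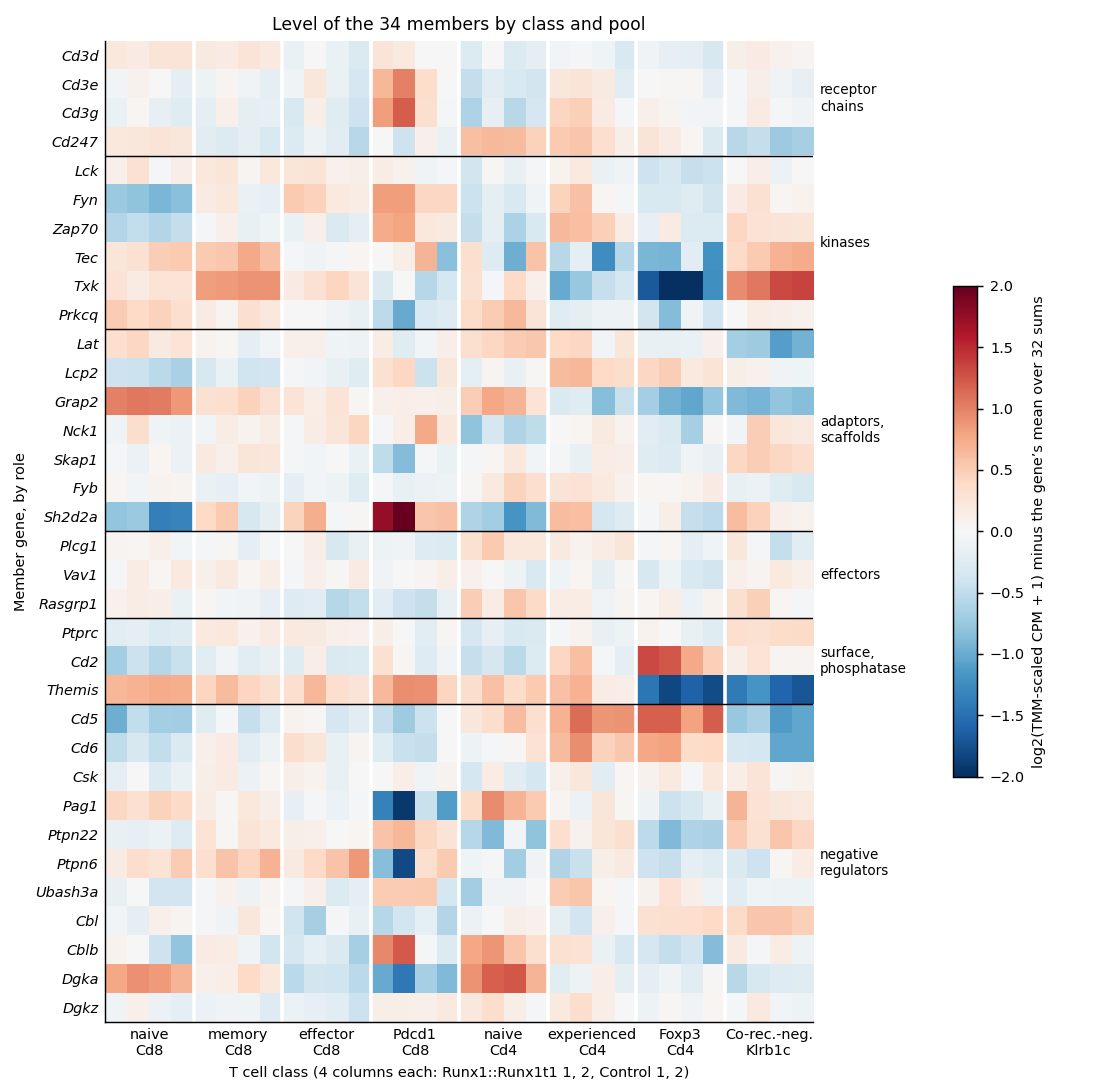
Level of each of the 34 genes (rows, grouped by role) in each class and pool (columns), shown as log2 of the TMM-scaled CPM plus 1, minus the mean of that gene over the 32 sums, with the color scale limited at 2 in both directions. Sh2d2a, Fyn and Zap70 are lowest in naive Cd8 cells, Themis and Txk are lowest in Foxp3 Cd4 cells, and Pag1 and Dgka are lowest in Pdcd1 Cd8 cells.

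The heatmap of members by class shows how unevenly the 34 genes were spread. Pdcd1 Cd8 and naive Cd4 cells each held the highest mean for 9 genes, co-receptor-negative Klrb1c cells for 6, experienced Cd4 cells for 3, naive Cd8, effector Cd8 and Foxp3 Cd4 cells for 2 each, and memory Cd8 cells for 1. Foxp3 Cd4 cells held the lowest mean for 8 genes. The ratio of the highest to the lowest class mean ran from 1.24 for Csk to 7.91 for Txk, and it was 5.56 for Themis, 5.52 for Sh2d2a, 4.003 for Dgka, 3.996 for Cd5, 3.67 for Grap2 and 3.52 for Pag1. In most genes the leading class did not stand clear of the next. Only for Txk, Skap1 and Ptprc, highest in co-receptor-negative Klrb1c cells, and Grap2, highest in naive Cd8 cells, did the lowest pool of the leading class lie above the highest pool of the next class. Non-T barcodes, with no TCR contig and at least 5 UMIs of B cell or myeloid genes, gave a level at or above the lowest T cell class for Tec, Vav1, Cbl, Pag1 and Ptpn6, so for these genes a low level cannot be told from background and expression in other cells. For the receptor chains, in contrast, the lowest class mean was 9.06 to 12.5 times the non-T mean.

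For 29 of the 34 genes a promoter window of 300 bases was held in the RefSeq table, 250 before to 50 after a start site in GRCm38.p6, and 42 windows were found in all. The letters TGTGGT or TGCGGT, the core that RUNX proteins bind, were searched on both strands, so that ACCACA and ACCGCA count as well. The fusion protein keeps the RUNX1 DNA-binding domain. They occurred in 8 of 42 windows, or 19.05%, against 22.41% of all 32851 windows of that length. The matched windows belonged to Zap70, Ptpn22, Lck, Txk, Lat, Fyn, Ubash3a and Cd5. Windows of 5 genes that were higher in Pdcd1 Cd8 cells are shown as examples, picked after the values were seen. Others that were higher there are not shown, among them Cblb and Lcp2, without a match, and Ubash3a, with 1. How many of the shown windows hold a match is therefore not a result. Zap70 had 3 windows and Ptpn22 had 2, of which only the 1 with a match is shown for each, the others holding none. The first pair lies in the Cd3 cluster on chromosome 9 and held no match, and in the other 3 the matched letters are in capitals.
Cd3e, chr9:45009562-45009861, minus strand: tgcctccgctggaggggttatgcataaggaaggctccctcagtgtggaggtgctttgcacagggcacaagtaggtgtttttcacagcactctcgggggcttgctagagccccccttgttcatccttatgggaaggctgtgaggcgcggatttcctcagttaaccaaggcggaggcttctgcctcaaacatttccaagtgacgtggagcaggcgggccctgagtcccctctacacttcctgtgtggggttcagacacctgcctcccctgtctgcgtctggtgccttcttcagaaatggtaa
Cd3g, chr9:44980382-44980681, minus strand: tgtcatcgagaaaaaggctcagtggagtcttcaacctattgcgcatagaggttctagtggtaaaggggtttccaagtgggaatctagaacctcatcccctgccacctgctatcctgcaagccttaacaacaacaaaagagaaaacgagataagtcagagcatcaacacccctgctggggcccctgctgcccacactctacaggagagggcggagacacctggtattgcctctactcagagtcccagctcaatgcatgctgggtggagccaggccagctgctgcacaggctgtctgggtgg
Fyn, chr10:39369549-39369848, plus strand: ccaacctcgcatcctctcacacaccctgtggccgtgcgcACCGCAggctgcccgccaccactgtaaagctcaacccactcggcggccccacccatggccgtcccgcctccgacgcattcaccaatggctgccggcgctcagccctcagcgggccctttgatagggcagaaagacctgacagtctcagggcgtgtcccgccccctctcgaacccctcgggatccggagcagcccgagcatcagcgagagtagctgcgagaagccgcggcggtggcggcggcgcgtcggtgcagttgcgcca
Zap70, chr1:36764265-36764564, plus strand: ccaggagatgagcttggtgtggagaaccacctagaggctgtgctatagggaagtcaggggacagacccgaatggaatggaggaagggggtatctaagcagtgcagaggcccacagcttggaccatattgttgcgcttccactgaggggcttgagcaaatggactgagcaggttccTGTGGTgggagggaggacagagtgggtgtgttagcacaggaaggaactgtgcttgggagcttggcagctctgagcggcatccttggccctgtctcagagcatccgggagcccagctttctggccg
Ptpn22, chr3:103860027-103860326, plus strand: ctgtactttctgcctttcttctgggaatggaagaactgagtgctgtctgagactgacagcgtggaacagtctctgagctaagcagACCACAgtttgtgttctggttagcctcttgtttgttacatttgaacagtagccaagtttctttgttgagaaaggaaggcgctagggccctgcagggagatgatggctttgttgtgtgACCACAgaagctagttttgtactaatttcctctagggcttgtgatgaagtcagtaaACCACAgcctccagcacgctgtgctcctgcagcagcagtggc
The letters stand in 1 place in the Fyn and Zap70 windows and in 3 places in the Ptpn22 window. A match is a run of letters and not a measured binding site.

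The first question was how the genes changed along the Cd8 classes. From naive to memory Cd8 cells, the adaptor Sh2d2a, which binds Lck, and the kinases Fyn, Txk and Zap70 were higher, and the diacylglycerol kinase Dgka, the zeta chain Cd247 and the adaptor Grap2 were lower. Of 34 genes, 12 were higher (8 positive, 4 negative regulators) and 5 lower (4 positive, 1 negative), beside 24.8% of all 10916 genes tested. Sh2d2a was at 175, 179.7, 116 and 119.5 CPM in naive and 400.5, 436, 241 and 263 in memory cells (log2 fold change 1.18 ± 0.12 SE, adjusted p = 1.71e-08). Fyn was at 147, 140.1, 129.5 and 137 in naive and 277, 286, 225 and 220.2 in memory cells (log2 fold change 0.86 ± 0.09 SE, adjusted p = 6.82e-09). Both were higher in memory cells in 4 of 4 pools. Txk, a kinase of the Tec family, rose from 117, 108, 117 and 116 to 173, 174, 179 and 180.4 (log2 fold change 0.65 ± 0.11 SE, adjusted p = 3.45e-05), and Zap70 from 123, 132, 123 and 133 to 182, 199.7, 167 and 175 (log2 fold change 0.50 ± 0.09 SE, adjusted p = 4.96e-05). In the other direction, Grap2 was at 223, 231, 229 and 203 in naive and 137, 140.2, 152 and 138 in memory cells (log2 fold change -0.62 ± 0.08 SE, adjusted p = 1.33e-06). Dgka was at 391, 429, 411 and 367 against 246, 249.9, 300.5 and 264 (log2 fold change -0.57 ± 0.10 SE, adjusted p = 3.16e-05), Cd247 at 294, 295, 301 and 295 against 219, 208, 222 and 204 (log2 fold change -0.46 ± 0.09 SE, adjusted p = 0.000143). The scaffold Lat was lower by a smaller step (log2 fold change -0.32 ± 0.09 SE, adjusted p = 0.00621), and the other called genes, Cd5, Ptprc, Ptpn22, Cd6, Cd2, Skap1, Lcp2, Csk and Themis, differed by 0.21 to 0.48 on the log2 scale. The remaining receptor chains did not pass the test, at -0.01 for Cd3d, -0.02 for Cd3e and 0.03 for Cd3g. Without Runx1::Runx1t1 replicate 1 the count of called genes was 11.

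Effector Cd8 cells were compared with the same naive sums. The genes called higher were 10 (6 positive, 4 negative regulators) and those called lower 11 (8 positive, 3 negative), beside 43.7% of all genes called. Sh2d2a was at 412, 499, 296 and 308 CPM (log2 fold change 1.36 ± 0.13 SE, adjusted p = 4.46e-10) and Fyn at 354, 340.4, 282 and 273 (log2 fold change 1.18 ± 0.09 SE, adjusted p = 6.41e-12). Cd5 and Cd6, related receptors that dampen TCR signals, were the next largest, with Cd5 at 96.8, 136, 119 and 118 in naive and 201, 195, 151 and 164 in effector cells (log2 fold change 0.62 ± 0.13 SE, adjusted p = 0.000177) and Cd6 at 119, 136, 121 and 138 against 216, 201, 153 and 175 (log2 fold change 0.53 ± 0.12 SE, adjusted p = 0.000473). These 4 genes were higher in every pool. Dgka fell to 157, 176, 174 and 156 (log2 fold change -1.25 ± 0.10 SE, adjusted p = 2.43e-11), and Grap2 to 134, 121, 133 and 113 (log2 fold change -0.80 ± 0.09 SE, adjusted p = 1.73e-08). Cd247 fell to 208, 236, 218 and 172 (log2 fold change -0.50 ± 0.09 SE, adjusted p = 3.2e-05) and Pag1, the anchor of Csk, went from 59.2, 54.7, 61.1 and 58.1 to 39.2, 43.0, 40.8 and 42.7 (log2 fold change -0.49 ± 0.12 SE, adjusted p = 0.00159). The effector sums carried more neutrophil and myeloid RNA than the naive ones, with a summed level of 7 such genes of 200.2, 54.8, 1793 and 804 CPM against 6.94, 7.54, 83.1 and 31.6, and its part in these differences was not tested.

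The split between higher and lower depends on the scaling. With plain library sizes in place of TMM, a setting chosen after seeing the data, the median difference over all genes was higher by 0.32 for effector against naive and by 0.38 for Pdcd1 against naive Cd8 cells. It was also higher by 0.21 for naive Cd4 against naive Cd8, 0.19 for experienced against naive Cd4, 0.18 for co-receptor-negative Klrb1c against memory Cd8 and 0.29 for expanded against single clonotypes, and by at most 0.07 in size elsewhere. All changes here are relative to the TMM-scaled median, which lay within 0.05 of 0. On library sizes, 20 members were higher and 2 lower in effector cells, in place of 10 and 11, and Lat, Themis and Cbl then lay above 0 instead of below.

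Against naive Cd8 cells, 17 members were called in memory, 21 in effector and 24 in Pdcd1 Cd8 cells, beside 24.8%, 43.7% and 51.1% of all genes. The order of these counts is also that of the shares over all genes, so nothing is read from it. Pdcd1 Cd8 cells had more RNA of Sh2d2a, Fyn and Zap70, of the receptor chains Cd3e and Cd3g and of the ubiquitin ligase Cblb. They had less of Pag1, Dgka and Prkcq, the kinase that carries the diacylglycerol signal to NF-kB. In all, 13 genes were higher (8 positive, 5 negative regulators) and 11 lower (7 positive, 4 negative), beside 51.1% of all genes called. The median over the 34 genes was -0.03, and 0.03 over all genes. On library sizes the split was 21 higher and 5 lower, and Cd247, Lat, Skap1 and Cbl, called lower here, lay above 0.

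Among the receptor chains, Cd3g was at 734 and 832 in the Runx1::Runx1t1 pools and 722 and 687 in the control pools in naive cells and at 1445 and 1877 in the Runx1::Runx1t1 pools and 1011 and 784 in the control pools in Pdcd1 cells (log2 fold change 0.79 ± 0.12 SE, adjusted p = 1.64e-06). Cd3e was at 979, 1078, 1007 and 890.1 against 1607, 2052, 1295 and 1019 (log2 fold change 0.60 ± 0.09 SE, adjusted p = 2.39e-06). Both were higher in 4 of 4 pools, by more in the Runx1::Runx1t1 pools. Cd3d, their neighbor in the same cluster of chromosome 9, which lies between Cd3g and Cd3e at 44981786 to 44987339 of GRCm38, was at 1014, 988, 1052 and 1052 against 1049, 1002, 883 and 868 and did not pass the test (log2 fold change -0.09 ± 0.06 SE, adjusted p = 0.232). Cd247 was lower, from 294, 295, 301 and 295 to 255, 190.3, 272 and 229 (log2 fold change -0.36 ± 0.09 SE, adjusted p = 0.00183), though it changed sign on library sizes.

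Among the kinases, Fyn rose from 147, 140.1, 129.5 and 137 to 438, 439, 329.5 and 329 (log2 fold change 1.49 ± 0.09 SE, adjusted p = 5.01e-14) and Zap70 from 123, 132, 123 and 133 to 311, 323, 215 and 211 (log2 fold change 1.09 ± 0.09 SE, adjusted p = 4.83e-11). Both genes were higher in Pdcd1 than in naive cells in every pool. Lck, the kinase that starts the cascade, did not pass the test (log2 fold change -0.08 ± 0.06 SE, adjusted p = 0.307). Prkcq fell from 201, 187, 194 and 177 to 98.0, 69.8, 114 and 118 (log2 fold change -1.02 ± 0.11 SE, adjusted p = 1.02e-08), in 4 of 4 pools. Txk was lower (log2 fold change -0.39 ± 0.13 SE, adjusted p = 0.0118), a call lost without Runx1::Runx1t1 replicate 1 or without control replicate 1.

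Sh2d2a showed the largest change of the 34 genes here. Its level was 175 and 179.7 in the Runx1::Runx1t1 pools and 116 and 119.5 in the control pools in naive cells and 1022 and 1333 in the Runx1::Runx1t1 pools and 446 and 455 in the control pools in Pdcd1 cells, with means of 148 ± 34.5 and 814 ± 439 CPM (SD, n = 4 pools; log2 fold change 2.43 ± 0.13 SE, adjusted p = 3.52e-15). The gene lies at chr3:87846755-87855722 of GRCm38. Among the other adaptors, Lcp2 rose from 125, 124, 114 and 106 to 207, 222, 124 and 195 (log2 fold change 0.73 ± 0.08 SE, adjusted p = 9.87e-09) and Grap2 fell from 223, 231, 229 and 203 to 118, 122, 119 and 120.0 (log2 fold change -0.88 ± 0.10 SE, adjusted p = 9.26e-09). Skap1 was lower (log2 fold change -0.35 ± 0.09 SE, adjusted p = 0.00226), but it was at -0.10 and not called when 1 cell was taken per clonotype in each class and pool, an alternative called each clonotype counted once below. Of the effectors, Rasgrp1 was lower (log2 fold change -0.40 ± 0.10 SE, adjusted p = 0.00107), while Plcg1 at -0.20 and Vav1 at -0.08 did not pass.

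The negative regulators split. Cblb, which marks signaling proteins for degradation, rose from 145 and 137 in the Runx1::Runx1t1 pools and 103 and 79.7 in the control pools to 270.4 and 324 in the Runx1::Runx1t1 pools and 135 and 115 in the control pools (log2 fold change 0.99 ± 0.13 SE, adjusted p = 3.35e-07). Ptpn22, a phosphatase of Lck and Zap70, rose from 123, 121, 126 and 114 to 204, 217, 183 and 163 (log2 fold change 0.74 ± 0.09 SE, adjusted p = 8.92e-08), as did Ubash3a (log2 fold change 0.63 ± 0.12 SE, adjusted p = 6.02e-05). Csk and Dgkz were higher by 0.19 and 0.20. Pag1 fell from 59.2, 54.7, 61.1 and 58.1 to 16.6, 10.9, 32.04 and 19.7 (log2 fold change -2.02 ± 0.16 SE, adjusted p = 5.38e-12), which put it below the 37.4, 41.0, 41.4 and 32.5 CPM of the non-T barcodes, and Dgka fell from 391, 429, 411 and 367 to 113, 83.9, 144 and 124 (log2 fold change -1.87 ± 0.11 SE, adjusted p = 3.4e-14). Each of these genes changed in the same direction in all 4 pools. Ptpn6, the phosphatase SHP-1, did not. It was at 119.6, 136, 128 and 153 in naive and 58.8, 29.7, 133 and 154 in Pdcd1 cells, lower in the Runx1::Runx1t1 pools alone (log2 fold change -0.99 ± 0.24 SE, adjusted p = 0.000826), and the call was lost without Runx1::Runx1t1 replicate 2 and, at -0.28, with each clonotype counted once.

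**Figure D2:**
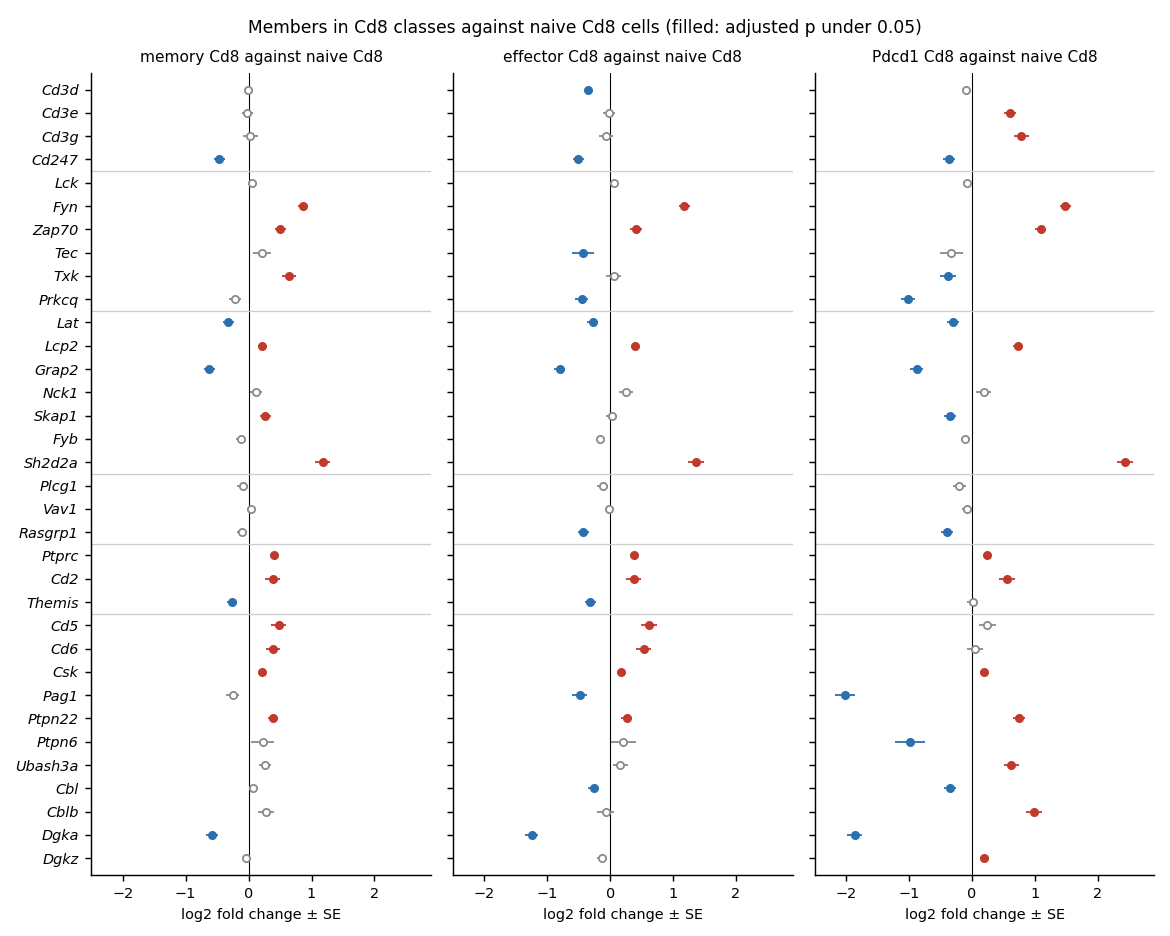
Log2 fold change of each of the 34 genes in memory, effector and Pdcd1 Cd8 cells against naive Cd8 cells, with bars of 1 SE and filled symbols for an adjusted p under 0.05. The 3 comparisons share the naive sums. Sh2d2a lies at 1.18, 1.36 and 2.43, Dgka at -0.57, -1.25 and -1.87, and Pag1 at -0.25, -0.49 and -2.02.

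**Figure D3:**
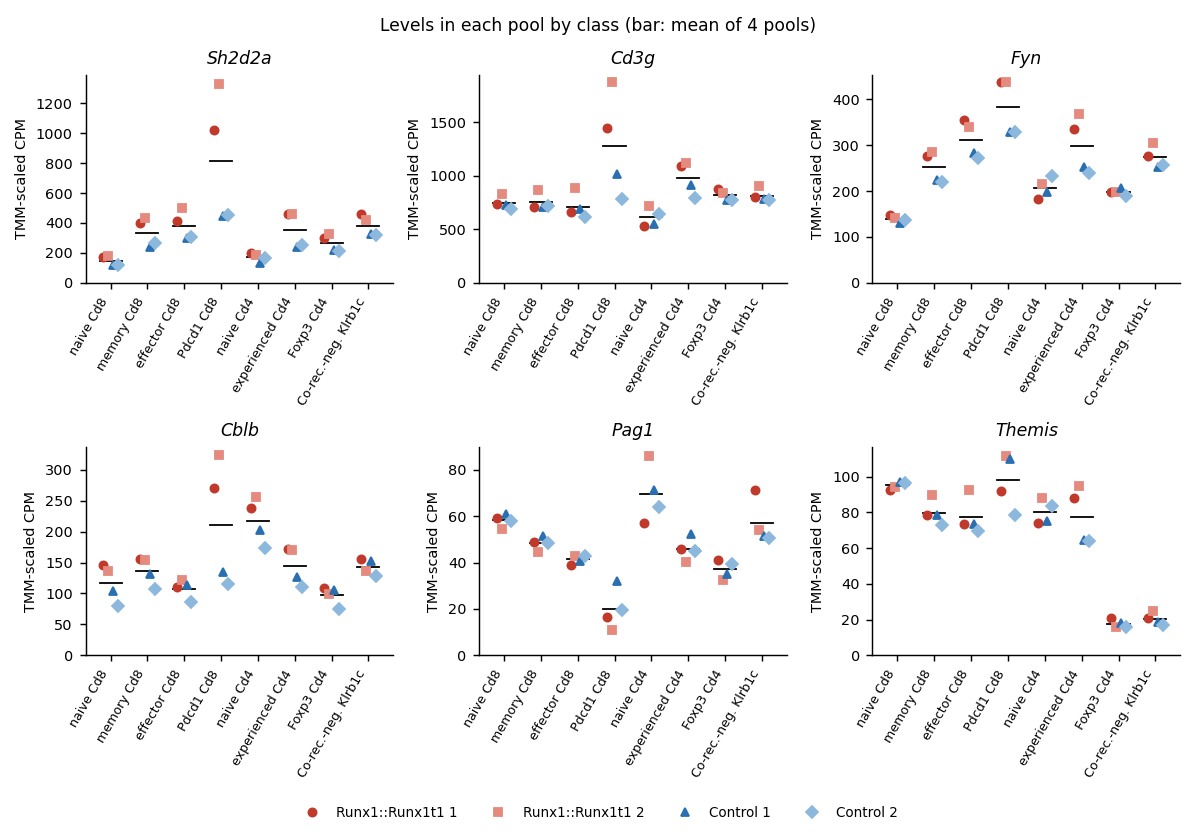
TMM-scaled CPM of Sh2d2a, Cd3g, Fyn, Cblb, Pag1 and Themis in each class, with a point per pool colored by group. Sh2d2a reaches 1333 CPM in the Pdcd1 Cd8 cells of Runx1::Runx1t1 replicate 2, Pag1 drops to 10.9 there, and Themis stays at or under 25.0 in Foxp3 Cd4 and co-receptor-negative Klrb1c cells.

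Set directly against effector Cd8 cells, Pdcd1 Cd8 cells were higher in 12 genes (8 positive, 4 negative regulators) and lower in 8 (3 positive, 5 negative), beside 25.2% of all genes called. The largest differences were higher levels of Sh2d2a (log2 fold change 1.07 ± 0.12 SE, adjusted p = 3.36e-07), Cblb (log2 fold change 1.06 ± 0.13 SE, adjusted p = 1.31e-06), Cd3g (log2 fold change 0.85 ± 0.12 SE, adjusted p = 4.07e-06) and Zap70 (log2 fold change 0.68 ± 0.09 SE, adjusted p = 3.12e-06). Cblb was at 109.8, 122, 113 and 86.4 in effector cells, below the naive level in Runx1::Runx1t1 pools, and at 270.4, 324, 135 and 115 in Pdcd1 cells. Cd3g was at 657, 886, 686 and 609 in effector cells against the 1445, 1877, 1011 and 784 given above. Neither gene had passed the test between effector and naive cells. The largest decreases were those of Pag1 (log2 fold change -1.53 ± 0.16 SE, adjusted p = 9.56e-08), Ptpn6 (log2 fold change -1.20 ± 0.23 SE, adjusted p = 0.000335), Dgka (log2 fold change -0.62 ± 0.11 SE, adjusted p = 0.000201) and Prkcq (log2 fold change -0.56 ± 0.11 SE, adjusted p = 0.000495). With each clonotype counted once, Dgka was at -0.31 and Prkcq at -0.15 and neither was called, nor were Skap1, Themis, Cd6 and Ubash3a, and Cd5 turned from -0.38 to 0.10. Without Runx1::Runx1t1 replicate 1 the count fell from 20 to 13.

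The Cd4 classes had their own pattern. Naive Cd4 cells were higher than naive Cd8 cells in 9 genes (5 positive, 4 negative regulators) and lower in 5 (4 positive, 1 negative), beside 11.1% of all genes called. Cd5, whose level is known to follow the strength of self-recognition in the thymus, was at 96.8, 136, 119 and 118 CPM in naive Cd8 and 224, 246, 296 and 239 in naive Cd4 cells (log2 fold change 1.09 ± 0.14 SE, adjusted p = 2.68e-06). Cblb was at 145, 137, 103 and 79.7 against 238, 257, 202 and 173 (log2 fold change 0.92 ± 0.15 SE, adjusted p = 5.52e-05), and Fyn at 147, 140.1, 129.5 and 137 against 183, 215, 198 and 233 (log2 fold change 0.56 ± 0.10 SE, adjusted p = 0.000358). For these 3 genes each naive Cd4 sum lay above the naive Cd8 sum of the same pool. Lcp2 was also higher (log2 fold change 0.44 ± 0.09 SE, adjusted p = 0.00159). Grap2, at 156, 189, 179 and 134 in naive Cd4 cells, Cd3d, at 723, 873, 722 and 772, Ptpn22 and Cd3e were lower by 0.43, 0.41, 0.38 and 0.30 on the log2 scale, with adjusted p = 0.00608, 4.91e-05, 0.0328 and 0.0348. On library sizes the split was 15 higher and 1 lower. The naive Cd4 sums were small, at 107 to 137 cells, and the count of 14 calls was 6 without Runx1::Runx1t1 replicate 1, 8 without control replicate 1 and 9 without control replicate 2.

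From naive to experienced Cd4 cells, 15 genes were higher (10 positive, 5 negative regulators) and 7 lower (4 positive, 3 negative), beside 26.0% of all genes called. Sh2d2a rose from 199.9, 186, 133 and 163 to 462, 457, 239.5 and 252 (log2 fold change 1.05 ± 0.15 SE, adjusted p = 1.98e-06) and Zap70 from 134, 162, 119 and 149.7 to 293, 284, 258 and 207 (log2 fold change 0.92 ± 0.11 SE, adjusted p = 6e-08). Ptpn22 rose from 91.3, 74.0, 131 and 77.8 to 174, 145, 163 and 172 (log2 fold change 0.84 ± 0.11 SE, adjusted p = 1.22e-06) and Cd3g from 528, 718, 549.8 and 639.6 to 1091, 1121, 909 and 789 (log2 fold change 0.71 ± 0.12 SE, adjusted p = 4.4e-05). All of these were higher in 4 of 4 pools. Dgka fell from 426, 524, 544 and 366 to 196, 213, 249.6 and 199 (log2 fold change -1.09 ± 0.11 SE, adjusted p = 2.55e-09), Grap2 from 156, 189, 179 and 134 to 90.7, 93.2, 61.3 and 81.0 (log2 fold change -0.97 ± 0.11 SE, adjusted p = 4.89e-08), and Txk from 119, 94.7, 127 and 103 to 47.5, 56.8, 69.7 and 74.7 (log2 fold change -0.85 ± 0.15 SE, adjusted p = 6.64e-05). Prkcq was lower (log2 fold change -0.58 ± 0.12 SE, adjusted p = 0.000307). Cblb was lower in experienced than in naive Cd4 cells (log2 fold change -0.56 ± 0.14 SE, adjusted p = 0.00348), against the higher level that Pdcd1 Cd8 cells had relative to naive Cd8 cells, a difference between lineages that was not tested. The share of experienced Cd4 cells with a Pdcd1 UMI was 10.2% to 27.5%.

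Foxp3 Cd4 cells had lower levels of most members that differed from experienced Cd4 cells. Only 2 genes were higher, the positive regulator Cd2 and the negative regulator Cbl, and 13 were lower (10 positive, 3 negative), beside 19.7% of all genes called. The median over the 34 genes was -0.23, and -0.01 over all genes. Themis, an adaptor-like protein that T cell development in the thymus depends on, was at 87.9, 94.5, 64.4 and 63.8 CPM in experienced and 20.7, 15.7, 18.1 and 16.03 in Foxp3 cells (log2 fold change -2.17 ± 0.12 SE, adjusted p = 9.33e-14). Txk was at 47.5, 56.8, 69.7 and 74.7 against 29.5, 19.6, 21.0 and 40.5 (log2 fold change -1.16 ± 0.16 SE, adjusted p = 1.38e-06), and Ptpn22 at 174, 145, 163 and 172 against 94.9, 73.5, 88.7 and 86.7 (log2 fold change -0.93 ± 0.10 SE, adjusted p = 1.54e-08). All 3 genes were lower in Foxp3 cells in every pool. Zap70 fell (log2 fold change -0.62 ± 0.09 SE, adjusted p = 4.54e-06), and Fyn, Cblb, Grap2, Lck, Sh2d2a, Lat, Cd247, Vav1 and Dgkz by 0.60 to 0.21 on the log2 scale. Cd2, the adhesion receptor, was at 971 and 920.3 in the Runx1::Runx1t1 pools and 658 and 545 in the control pools, and in experienced cells at 519, 591, 377 and 341 (log2 fold change 0.76 ± 0.12 SE, adjusted p = 1.45e-05). Cbl was at 68.6, 59.98, 84.3 and 77.8 against 97.6, 99.2, 99.2 and 104 (log2 fold change 0.48 ± 0.08 SE, adjusted p = 4.62e-05). Foxp3 cells were higher for both genes in 4 of 4 pools. Cd5 was at 441, 438, 334 and 444 in Foxp3 cells and did not pass the test against experienced cells (log2 fold change 0.20 ± 0.12 SE, adjusted p = 0.256). Cd3d, Cd3e and Cd3g did not pass either. The summed neutrophil and myeloid level was 8.42, 9.57, 525.6 and 20.7 CPM in Foxp3 cells and 22.2, 15.7, 100.1 and 72.6 in experienced cells.

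The 5 innate-like markers, such as Zbtb16, include Il2rb, a gate gene of the memory class. Their sum was 1883 to 2025 CPM in co-receptor-negative Klrb1c cells and 666.5 to 882.5 in memory Cd8 cells. The co-receptor-negative Klrb1c cells were set against these memory cells. In 8 genes they were higher (6 positive, 2 negative regulators) and in 9 lower (5 positive, 4 negative), beside 33.7% of all genes called, and on library sizes the split was 17 higher and 7 lower, with Lck, called lower here, just above 0. The largest difference was Themis, at 78.4, 90.0, 78.2 and 72.7 CPM in memory Cd8 and 21.0, 25.0, 18.6 and 17.1 in co-receptor-negative cells (log2 fold change -2.01 ± 0.09 SE, adjusted p = 7.32e-16). Grap2 was at 137, 140.2, 152 and 138 against 59.6, 57.8, 63.4 and 60.9 (log2 fold change -1.21 ± 0.09 SE, adjusted p = 1.37e-11), and Lat at 674, 652, 569 and 619 against 404, 393, 300.5 and 334 (log2 fold change -0.82 ± 0.09 SE, adjusted p = 1.84e-08). For these 3 genes the co-receptor-negative sums lay far below the memory sums in each pool. Cd6 and Cd5 were lower as well (log2 fold change -0.69 ± 0.11 SE, adjusted p = 1.74e-05, and log2 fold change -0.67 ± 0.12 SE, adjusted p = 5.35e-05). In Cd6 and Cd5 the control pools lay below the Runx1::Runx1t1 pools, with Cd6 at 136, 132, 82.3 and 82.2. Cd5 did not pass edgeR's test between the groups in this class (log2 fold change 0.38 ± 0.10 SE, adjusted p = 0.11). How often the groups separated over all genes was not counted, so nothing is read from the separation. Cbl was at 76.6, 74.9, 92.3 and 80.7 in memory and 103, 116, 116 and 110.1 in co-receptor-negative cells (log2 fold change 0.44 ± 0.07 SE, adjusted p = 1.22e-05), and Zap70 at 182, 199.7, 167 and 175 against 248, 227, 223 and 220.5 (log2 fold change 0.35 ± 0.08 SE, adjusted p = 0.00114). Lcp2 and Txk were higher by 0.32 and 0.30, with adjusted p = 0.000652 and 0.0214. The co-receptor-negative cells without Klrb1c were intermediate for Themis, at 45.9, 59.3, 37.2 and 37.7, and for Grap2, at 93.8, 97.1, 91.5 and 90.2, with no test. The summed level of NK genes, a list that includes the gate genes Klrb1c and Eomes, was 993 to 1254 CPM in the Klrb1c class. That of 3 gamma-delta chain genes was 42.9 to 73.1 CPM, and all cells of the class carried a productive alpha and beta chain. The neutrophil and myeloid level was 1406 CPM in control replicate 1 and 9.28 to 43.6 in the other pools. The part of these genes of other cell types in the differences was not tested.

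Clonal expansion was the next comparison. Among Cd8 cells outside the naive class, those of clonotypes with at least 5 cells in a pool were set against clonotypes with a single cell. There were 824, 2035, 131 and 331 expanded cells in 53, 41, 17 and 33 clonotypes. Large clonotypes weigh by their cells here, and each clonotype counted once was not run for this comparison. In Runx1::Runx1t1 replicate 2, 1 clonotype held 54.6% of the 1654 Pdcd1 Cd8 cells. Of the expanded cells, 39.0%, 72.9%, 16.8% and 6.95% were Pdcd1 Cd8 cells, against 1.08% to 4.55% of the single ones, and their median UMIs were 5265 to 5814 against 7378 to 9065. Expanded cells were higher in 9 genes (7 positive, 2 negative regulators) and lower in 5 (3 positive, 2 negative), beside 23.4% of all 12202 genes called, and on library sizes the split was 21 higher and 4 lower. Without Runx1::Runx1t1 replicate 1 the count fell from 14 to 7.

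Sh2d2a was at 363, 345, 231 and 243 CPM in single and 858, 1315, 447 and 426 in expanded cells (log2 fold change 1.24 ± 0.18 SE, adjusted p = 0.00502). Fyn was at 258, 256, 216 and 207 against 447, 452, 419.8 and 324 (log2 fold change 0.81 ± 0.08 SE, adjusted p = 0.00199), and Lcp2 at 125, 134, 124 and 121 against 213, 231, 179.7 and 189 (log2 fold change 0.69 ± 0.08 SE, adjusted p = 0.00275). In these genes each expanded sum lay above the single sum of the same pool. Cd3g was at 674, 755, 697 and 690.0 against 1200.0, 1863, 876 and 787 (log2 fold change 0.67 ± 0.18 SE, adjusted p = 0.0395). Among genes that were lower, Pag1 went from 49.3, 49.7, 51.6 and 49.9 to 21.8, 12.1, 27.0 and 30.3 (log2 fold change -1.28 ± 0.21 SE, adjusted p = 0.00753), Dgka from 248, 271, 294 and 264 to 125, 85.9, 160.5 and 162 (log2 fold change -1.06 ± 0.15 SE, adjusted p = 0.00481) and Txk from 175, 182, 173 and 178 to 72.3, 91.9, 112 and 99.8 (log2 fold change -0.94 ± 0.11 SE, adjusted p = 0.00278). Tec was lower (log2 fold change -0.75 ± 0.15 SE, adjusted p = 0.013). These 4 genes were lower in 4 of 4 pools.

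Since expanded cells more often carried Pdcd1, the comparison was repeated within classes, an alternative that was chosen after seeing the data. In memory and effector Cd8 cells alone, 13 genes were higher and 5 lower, beside 23.1% of all genes called. Sh2d2a (0.98 ± 0.14 SE, adjusted p = 0.00114), Fyn (0.77 ± 0.08 SE, adjusted p = 0.000367), Txk (-0.99 ± 0.13 SE, adjusted p = 0.000799) and Dgka (-0.87 ± 0.11 SE, adjusted p = 0.000722) kept their direction and their call. In Pdcd1 Cd8 cells alone, with 22 and 23 expanded and 29 and 33 single cells in the control pools, 7 genes were higher and 3 lower, beside 12.5% of all 6819 genes called. Sh2d2a was at 568, 549, 248 and 329.5 in single and 1227, 1414, 671 and 503 in expanded Pdcd1 cells (1.17 ± 0.14 SE, adjusted p = 0.000134). Cd3e was higher (0.62 ± 0.11 SE, adjusted p = 0.00231), and Ptpn6 was lower (-1.37 ± 0.23 SE, adjusted p = 0.00127). Pag1 (-1.29 ± 0.44 SE, adjusted p = 0.0739) and Txk (-0.31 ± 0.17 SE, adjusted p = 0.274) did not pass the test in Pdcd1 cells, where the Pag1 estimate was as large as in all cells but had a larger error.

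**Figure D4:**
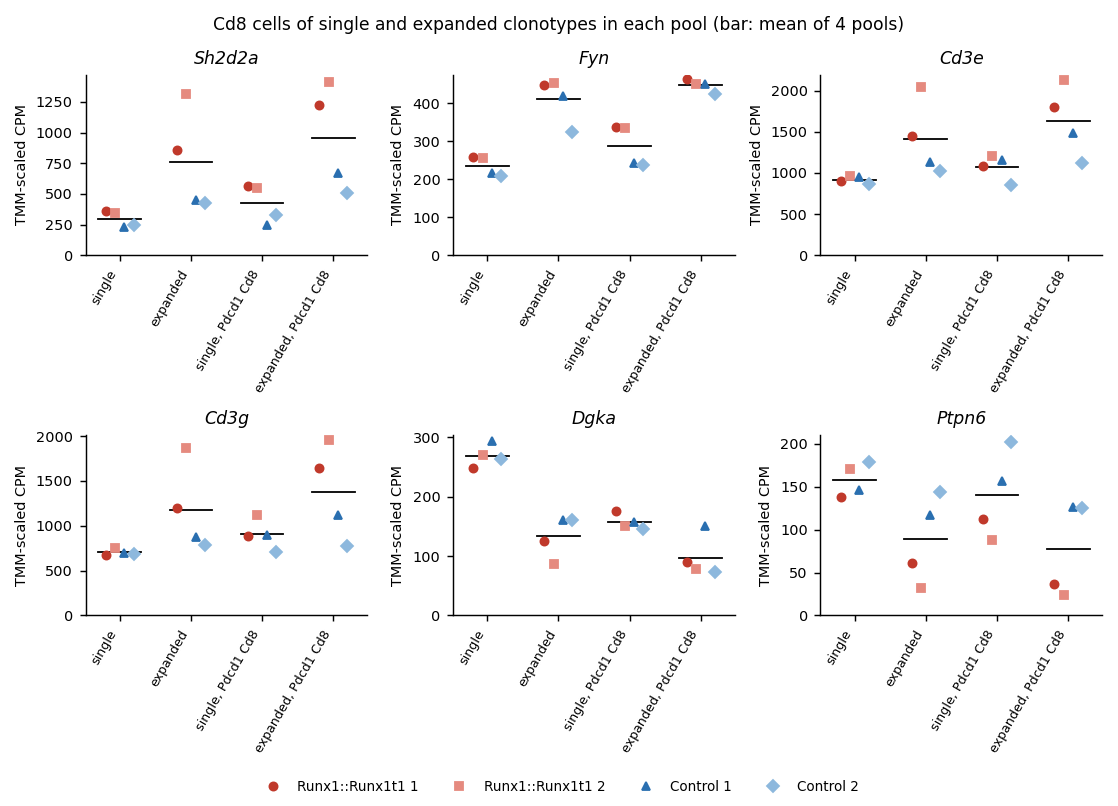
TMM-scaled CPM of Sh2d2a, Fyn, Cd3e, Cd3g, Dgka and Ptpn6 in single-cell and expanded clonotypes (at least 5 cells) of Cd8 cells outside the naive class. The same kinds of clonotype are also shown within Pdcd1 Cd8 cells alone. A point stands for each pool and a bar for the mean of 4 pools. Sh2d2a and Fyn rise and Dgka falls in all 4 pools, and Ptpn6 is lower by more in the Runx1::Runx1t1 pools, at 61.0 and 32.02 CPM when expanded, than in the control pools, at 117 and 144.

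The last question was whether the groups differed within a class. The comparison was made with 2 pools against 2 in each of the 8 classes, and few members passed, which does not show that the others were alike. In naive Cd8 cells, Sh2d2a and Cblb were higher in the Runx1::Runx1t1 group and none was lower, beside 1.10% of all genes called. In memory Cd8 cells Sh2d2a alone was higher, beside 1.30%. In Pdcd1 Cd8 cells 3 were higher and 1 lower, beside 2.02%, in experienced Cd4 cells 6 were higher and 1 lower, beside 1.99%, and in co-receptor-negative Klrb1c cells 2 were higher, beside 1.23%. No member was called in effector Cd8 cells (0.965% of all genes), naive Cd4 cells (0.133%) or Foxp3 Cd4 cells (0.148%) by edgeR. There, DESeq2 called 1, 0 and 1. By edgeR, 11, 0 and 4 members had an unadjusted p under 0.05, but the matching share over all genes was not counted, so nothing is read from this.

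Sh2d2a was higher in the Runx1::Runx1t1 group in 5 of 8 classes. In naive Cd8 cells its level was 175 and 179.7 in the Runx1::Runx1t1 pools and 116 and 119.5 in the control pools (log2 fold change 0.59 ± 0.10 SE, adjusted p = 0.00301). In memory Cd8 cells it was 400.5 and 436 in the Runx1::Runx1t1 pools and 241 and 263 in the control pools (log2 fold change 0.73 ± 0.08 SE, adjusted p = 0.0134), and this call was lost without either control pool. Within each of the 8 classes both Runx1::Runx1t1 pools lay above both control pools, also where the test was not passed, as in effector Cd8 cells, at 412, 499, 296 and 308 (log2 fold change 0.58 ± 0.11 SE, adjusted p = 0.0517), and Foxp3 Cd4 cells, at 296, 327, 220.4 and 209 (log2 fold change 0.50 ± 0.12 SE, adjusted p = 0.132). The classes come from the same 4 pools, and Sh2d2a was picked by its calls. How often this held over all genes was not counted, so nothing is read from it. In co-receptor-negative Klrb1c cells Sh2d2a was at 462, 417, 326 and 319 (log2 fold change 0.45 ± 0.08 SE, adjusted p = 0.0321). With each clonotype counted once, naive Cd8 cells, which were already single clonotypes, gave 0.59 ± 0.10 SE, adjusted p = 0.00335, memory Cd8 cells 0.57 ± 0.08 SE, adjusted p = 0.00709, and experienced Cd4 cells 0.41 ± 0.09 SE, adjusted p = 0.11. The memory Cd8 class also differed in makeup between the groups. Cells on 1 gate UMI with at most 1 of Ccl5 were 10.6% and 8.27% against 20.4% and 15.7%. Expanded cells were 8.09% and 17.1% against 1.83% and 6.43%. Of exhaustion-related markers tested, 2 of 4 were called higher in naive and 3 of 6 in memory cells. Of the neutrophil and myeloid genes, 3 of 4 were called lower in naive and 4 of 6 in memory cells. The part of these in the differences was not tested.

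In Pdcd1 Cd8 cells, Sh2d2a was at 1022 and 1333 in the Runx1::Runx1t1 pools and 446 and 455 in the control pools (log2 fold change 1.36 ± 0.17 SE, adjusted p = 0.00979), Cblb at 270.4, 324, 135 and 115 (log2 fold change 1.23 ± 0.17 SE, adjusted p = 0.0118) and Cd3g at 1445, 1877, 1011 and 784 (log2 fold change 0.86 ± 0.18 SE, adjusted p = 0.0485). Ptpn6 was at 58.8, 29.7, 133 and 154 and lower in the Runx1::Runx1t1 group (log2 fold change -1.78 ± 0.30 SE, adjusted p = 0.0219). The groups did not overlap in these 4 genes, which were picked by their call, and the share over all genes was not counted. The Pdcd1 class differed between the groups in more than genotype. It held 68.3% and 89.7% expanded cells against 36.1% and 29.5%, and the exhaustion-related markers summed to 2075 and 2355 CPM against 867 and 793. The share of cells in the gate on 1 UMI was lower in the Runx1::Runx1t1 pools, as given above. The B cell genes summed to 33.5 and 41.1 against 112 and 102 CPM and the neutrophil and myeloid genes to 6.89 and 22.0 against 27.5 and 37.6 CPM, and Ptpn6 was at 99.8, 136, 279.9 and 170.3 CPM in the non-T barcodes. The part of these in the differences was not tested. With each clonotype counted once, Sh2d2a (0.89 ± 0.14 SE, adjusted p = 0.016) and Cblb (0.92 ± 0.16 SE, adjusted p = 0.0279) were still called, and Cd3g (0.41 ± 0.14 SE, adjusted p = 0.391) and Ptpn6 (-0.88 ± 0.20 SE, adjusted p = 0.0886) were not. Without either control pool, where 1 sum of 61 or 78 cells stood for the group, none of the 4 was called, and without Runx1::Runx1t1 replicate 1 the number called was 9.

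In experienced Cd4 cells, Sh2d2a was at 462 and 457 in the Runx1::Runx1t1 pools and 239.5 and 252 in the control pools (log2 fold change 0.89 ± 0.08 SE, adjusted p = 0.00336), Cd2 at 519, 591, 377 and 341 (log2 fold change 0.62 ± 0.10 SE, adjusted p = 0.0277), and Ubash3a, which dampens Zap70 signals, at 95.7, 98.7, 68.6 and 65.1 (log2 fold change 0.53 ± 0.08 SE, adjusted p = 0.0268). Cblb, Fyn and Themis were higher by 0.52, 0.51 and 0.50, with adjusted p = 0.0423, 0.0342 and 0.0342. Ptpn6 was lower, at 69.9, 78.2, 115 and 120.2 (log2 fold change -0.68 ± 0.09 SE, adjusted p = 0.0147). The groups did not overlap in any of these 7 genes, but they were picked by their call, and the share over all genes was not counted. With each clonotype counted once, none of the 7 was called, and without Runx1::Runx1t1 replicate 1 or 2 only 1 was. The largest clonotype held 8.23%, 6.81%, 4.71% and 2.63% of these cells, and 5 memory markers summed to 13550 and 13820 CPM against 4044 and 4717. Genes of other cell types moved with the groups as well. The neutrophil and myeloid genes summed to 22.2 and 15.7 against 100.1 and 72.6 CPM, with 5 of 6 tested called lower, and the B cell genes to 80.4 and 75.3 against 139 and 146 CPM, with 1 of 2 tested called lower. Of 4 NK genes tested 3 were lower and 1 higher, and Ptpn6 was at 99.8, 136, 279.9 and 170.3 CPM in the non-T barcodes. The part of these in the differences was not tested. In co-receptor-negative Klrb1c cells, Cd6 was at 136, 132, 82.3 and 82.2 (log2 fold change 0.70 ± 0.09 SE, adjusted p = 0.00849). The number called there was 1 without Runx1::Runx1t1 replicate 1 and 4 without control replicate 2. In naive Cd8 cells Cblb was at 145, 137, 103 and 79.7 (log2 fold change 0.62 ± 0.12 SE, adjusted p = 0.0114), a call lost without control replicate 2, which left 1. Without Runx1::Runx1t1 replicate 1, 4 members were called in effector Cd8 cells, and leaving out a pool gave 1 or 2 in Foxp3 Cd4 cells, 2 of them without Runx1::Runx1t1 replicate 1 or control replicate 1.

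**Figure D5:**
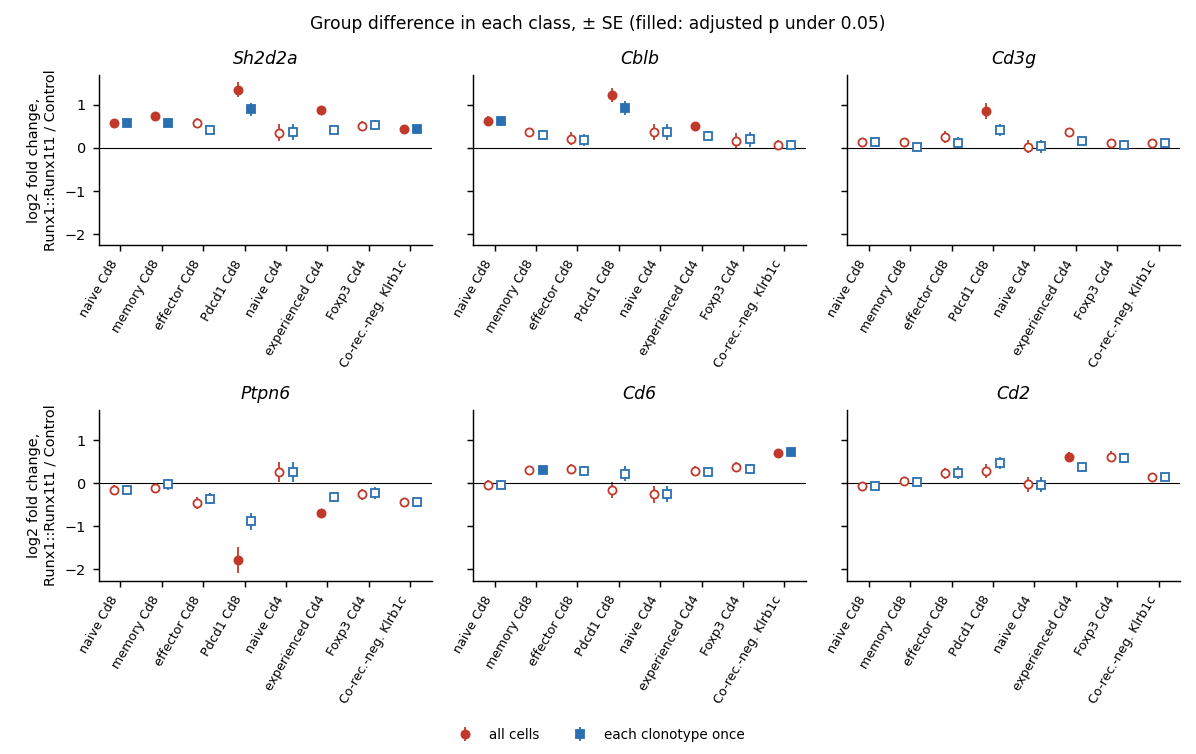
Log2 fold change of Sh2d2a, Cblb, Cd3g, Ptpn6, Cd6 and Cd2 between the groups in each class, positive where the Runx1::Runx1t1 pools were higher, with bars of 1 SE, from all cells and with each clonotype counted once. In Pdcd1 Cd8 cells Sh2d2a moves from 1.36 to 0.89 and Cd3g from 0.86 to 0.41, and in naive Cd8 cells the estimates hardly change.

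Whether the step from naive to Pdcd1 Cd8 cells itself differed between the groups was tested in 1 model over both. The step was larger in the Runx1::Runx1t1 group for Sh2d2a (log2 fold change 0.78 ± 0.16 SE, adjusted p = 0.0473) and Cd3g (log2 fold change 0.74 ± 0.14 SE, adjusted p = 0.0373) and more negative for Ptpn6 (log2 fold change -1.65 ± 0.32 SE, adjusted p = 0.0403), beside 1.01% of all genes called. No other member passed, Cblb being at 0.62 with adjusted p = 0.192. None of the 3 was called with each clonotype counted once or without either control pool, and without Runx1::Runx1t1 replicate 1 the number called was 7.

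Other parts of the pathway were looked at through lists of genes that are not members. In Pdcd1 against naive Cd8 cells, where 51.1% of all genes were called, 12 of 21 further proximal genes were higher and 5 lower, with the docking protein Gab2 at 4.61 and Ubash3b, a relative of Ubash3a, at 2.55, and with Gab3 at -1.39 and Tespa1 at -1.24. Of 12 calcium and NFAT genes 6 were higher, with the transcription factor Nfatc1 at 1.64, and 2 lower. Of 11 Ras and MAPK genes 3 were higher, led by the kinase Mapk3 at 1.25, and 4 lower, led by Rasgrp2 at -0.87. Of 11 NF-kB genes 1 was higher and 4 lower, led by the inhibitor Nfkbia at -1.21 and the adaptor Bcl10 at -1.06. Of 12 early response genes, which TCR signals switch on within hours or less, 3 were higher, with the orphan receptor Nr4a2 at 3.33, and 5 lower, with Myc at -1.61 and Jun at -1.58. In the last 4 lists 8 of 12, 7 of 11, 5 of 11 and 8 of 12 genes were called, shares close enough to that of all genes that nothing is read from them.

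Between expanded and single Cd8 clonotypes 9 of 21 further proximal genes were higher and none was lower, beside 23.4% of all genes called, with Ubash3b at 1.33 and Lax1, a membrane adaptor, at 1.05. In experienced against naive Cd4 cells 12 of these were higher and 2 lower, and of the 12 calcium and NFAT genes 5 were higher and none lower, beside 26.0% of all genes. In Foxp3 against experienced Cd4 cells, beside 19.7% of all genes, the further proximal list was split, with 5 higher (Dok1, Ubash3b, Rhoh, Ptpn7 and Sla) and 5 lower, among them Lax1 at -1.08. Of the early response genes 1 was higher, Dusp5, and 3 were lower, with Egr2 at -1.70 and Dusp2 at -1.52, and of the NF-kB genes 4 were higher, with Nfkbia at 0.82, and 1 lower. In co-receptor-negative Klrb1c against memory Cd8 cells 6 of 12 early response genes were higher, with Nr4a3 at 0.86, and 2 lower, beside 33.7% of all genes. Between the groups, 4 early response genes were higher in the naive Cd8 cells of the Runx1::Runx1t1 group and none was lower, with Nr4a1 at 0.75 and Dusp5 at 0.67, beside 1.10% of all genes. In Pdcd1 Cd8 cells 1 was higher, Nr4a2 at 1.07, and 4 were lower, with Myc at -1.44 and Nr4a1 at -1.40, beside 2.02%. The genes of these lists can also respond to handling during tissue preparation, which was not tested.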

How the data were processed

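The authors aligned the 5′ single-cell libraries with Cell Ranger 6.1.2 to GRCm38 and deposited, for each pool, raw UMI counts per gene and barcode and a table of productive TCR contigs. The annotation release, and whether counting used strand, were not given in the sources used here, so exons that overlap another gene in GENCODE M21 (Cd247, Ptpn6, Dgka, Plcg1, Fyb and Skap1 among others) may share reads. The counts carry no normalization.

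From these counts, barcodes with at least 200 genes, at most 15% mitochondrial UMIs and at least 2000 UMIs were kept, and cells with more than 1 TRB chain were left out as possible doublets. UMIs were summed per class and pool, with at least 20 cells per sum. Sums were tested with edgeR 4.0.16 in R 4.3.3 (TMM, filterByExpr, quasi-likelihood test, SE as the log2 fold change divided by the root of F), with the pool as a block between classes and without it between groups. DESeq2 1.42.0 was an alternative. The procedure was tested on simulated data. All 34 members are named. Values per pool are given for up to 4 members in each direction with the largest change among those called, and for other lists up to 2 genes per direction are named. Some further members are described for their role and were chosen after their values were seen. The members and lists were chosen with earlier results of these data known. Class gates came from marker genes that are no members. Promoter windows came from RefSeq. Library size without TMM and the expanded comparison within classes were chosen after seeing the data. The UMI total of a pool sets the counting error, and Tec and Nck1 had the fewest UMIs. Counts of UMIs and differences cover neither the animals within a pool nor antigen exposure.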

Additional observations from a re-analysis of the deposited data

Results flagged for a closer look

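For 3 members the step from naive to Pdcd1 Cd8 cells differed between the groups by a test of the difference itself, in edgeR's quasi-likelihood fit over both groups. The difference in log2 fold change, Runx1::Runx1t1 group minus control group, was 0.74 for Cd3g, 0.78 for Sh2d2a and -1.65 for Ptpn6. The log2 ratio of Pdcd1 to naive level of Cd3g was 0.98 and 1.17 in the Runx1::Runx1t1 pools and 0.49 and 0.19 in the control pools. For Sh2d2a it was 2.54 and 2.89 against 1.94 and 1.93, and for Ptpn6 it was -1.02 and -2.20 against 0.05 and 0.01. The ratios of the groups did not overlap for any of the 3, which were picked by their call, and the share over all genes was not counted. The control pools had 61 and 78 Pdcd1 Cd8 cells, and with each clonotype counted once the differences were 0.30 for Cd3g, 0.34 for Sh2d2a and -0.69 for Ptpn6, none of them called.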

How the results depend on the processing

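Over the 18 comparisons, 232 counts of called members were made under alternatives, of which 180 lay within 1.5 times the reported count and 52 did not. Of the 183 member differences that were called, 85 were called under every alternative run for them. They gave 2383 values, of which 2056 kept direction and call, 318 kept the direction alone and 9 changed sign. Causes were not tested.
Leaving out a pool in turn gave, as lowest and highest count, 11 and 16 for memory against naive Cd8 (reported 17), 17 and 21 for effector against naive Cd8 (21), 19 and 22 for Pdcd1 against naive Cd8 (24), 13 and 20 for Pdcd1 against effector Cd8 (20), 6 and 10 for naive Cd4 against naive Cd8 (14), 17 and 21 for experienced against naive Cd4 (22), 11 and 15 for Foxp3 against experienced Cd4 (15), 12 and 16 for co-receptor-negative Klrb1c against memory Cd8 (17) and 7 and 17 for expanded clonotypes (14). Between the groups it gave 1 and 2 in naive Cd8 (2), 0 and 1 in memory Cd8 (1), 0 and 4 in effector Cd8 (0), 0 and 9 in Pdcd1 Cd8 (4), 0 in naive Cd4 (0), 1 and 10 in experienced Cd4 (7), 1 and 2 in Foxp3 Cd4 (0) and 1 and 4 in co-receptor-negative Klrb1c cells (2). For the step from naive to Pdcd1 Cd8 by group it gave 0 and 7 (3). With 1 pool left in a group, it was assumed to vary like the others.
Without the replicate block between classes, 11 members were called for memory against naive Cd8, 9 for naive Cd4 against naive Cd8 and 11 for co-receptor-negative Klrb1c against memory Cd8. With replicate numbers as a replicate block between the groups, counts were 4 in memory Cd8, 2 in effector Cd8, 7 in Pdcd1 Cd8 and 6 in co-receptor-negative Klrb1c cells. Pools of the same number share only the number, and their deviations from the group means correlated by 0.05 to 0.34 over 8 classes.
With no filter on low counts the group counts were 4 in memory Cd8, 3 in effector Cd8, 7 in Pdcd1 Cd8, 2 in Foxp3 Cd4, 1 in co-receptor-negative Klrb1c cells and 6 for the step by group. With DESeq2 they were 4 in memory Cd8, 1 in effector Cd8 and 1 in Foxp3 Cd4. With each clonotype counted once they were 2 in memory Cd8, 2 in Pdcd1 Cd8, 0 in experienced Cd4 and 0 for the step by group. With T cells taken by Trac and Trbc UMIs they were 2 in memory Cd8, 3 in effector Cd8, 6 in co-receptor-negative Klrb1c cells and 6 for the step by group. Stricter gates gave 2 in effector Cd8, and could not be fitted for the Pdcd1 Cd8 groups or the step by group. At least 4000 UMIs gave 1 in effector Cd8 and 9 for naive Cd4 against naive Cd8. Plain library sizes gave 25 for expanded clonotypes.
The 9 differences that changed sign were Cd5 in Pdcd1 against effector Cd8 with each clonotype counted once (0.10) and, with plain library sizes, Lat (0.043), Themis (0.0057) and Cbl (0.0618) in effector against naive Cd8, Cd247 (0.0124), Lat (0.0729), Skap1 (0.0226) and Cbl (0.0379) in Pdcd1 against naive Cd8, and Lck (0.0066) in co-receptor-negative Klrb1c against memory Cd8.
Depth is a limit for small sums, such as those of 61 and 78 Pdcd1 Cd8 and 107 to 137 naive Cd4 cells.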

Other observations

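Tested T cells left out 1100 and 681 co-receptor-negative cells without Klrb1c in the Runx1::Runx1t1 pools and 1031 and 1078 in the control pools, whose members are given here with no test. Regulatory markers summed to 1392 and 1216 CPM against 576 and 541.5 in them, and 5 innate-like markers to 792 and 666 against 1141 and 1105 CPM, so the makeup of this class differed between the groups. Txk, highest in the Klrb1c class, was at 89.4 and 91.2 in the Runx1::Runx1t1 pools and 181 and 171 in the control pools. Lat was at 722, 737, 444 and 541 CPM, Cd5 at 269.7, 298, 143 and 178, Cd6 at 210.0, 242, 109 and 124 and Cd2 at 586, 584, 392.4 and 387. These 4 genes and Txk were picked after their values were seen. The groups did not overlap in them, but how often this held over all genes was not counted, so nothing is read from it.

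Csk had the smallest ratio between class means, as given above. It was at 186, 211, 175 and 192 CPM in naive Cd8 and 234, 254, 216 and 222 in co-receptor-negative Klrb1c cells. Vav1, a nucleotide exchange factor, was at 75.5, 85.4, 79.3 and 88.2 in naive Cd8 and 73.5, 77.7, 80.1 and 84.2 in Pdcd1 Cd8 cells, with 66.9, 70.8, 95.1 and 71.4 in non-T barcodes. Plcg1 was called in none of the 8 class comparisons, with values from -0.24 to 0.27 on the log2 scale. Among the members with few UMIs, Nck1, an adaptor to the cytoskeleton, was at 17.2, 24.1, 19.9 and 21.4 in naive Cd4 and 30.7, 31.5, 34.9 and 32.1 in experienced Cd4 cells (log2 fold change 0.68 ± 0.19 SE, adjusted p = 0.00704).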
